A study of Populus cathayana with 4 samples.

Results

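Metallothionein 3a (Potri.011G118900.1) was followed through the leaves of male and female Populus cathayana, a poplar with separate sexes, under 2 levels of solar UV-B. It is 1 of 19100 entries of the deposited count table, called genes here, and was taken by its identifier. It was chosen by its own counts in the 4 libraries, scaled by the library totals, and so its levels, ranks and ratios are given as a description, with no test. The name rests on the best database hit in the table, metallothionein 3a of a Populus trichocarpa x Populus deltoides hybrid. It was the single gene, of the 2940 whose hit names a protein, described as a metallothionein, and its locus has no other listed transcript. The table gives it no gene ontology term.

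Cuttings had grown in pots in a greenhouse and were treated for 100 days in 1 growing season. Male plants under reduced and under ambient UV-B and female plants under the same 2 levels made up the 4 groups, and the fourth fully expanded leaves were sampled. How UV-B was lowered is not given in the sources used here. Each group had 1 library, made from equal parts of RNA of 9 plants. The 4 values of a gene therefore have no replicate error, and differences between libraries cannot be told apart from differences between pools or between sequencing lanes.

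Metallothioneins are small cysteine-rich proteins that bind metal ions, chiefly copper and zinc in plants, through the thiol groups of their cysteines. They buffer free metal in the cell, and the same thiols can react with reactive oxygen species. Plants carry several types, which differ in how the cysteines are arranged, and type 3 metallothioneins are known from leaves and ripening fruit.

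Transcripts were measured by tag sequencing, in which each transcript is counted through a 17 bp tag beside an NlaIII restriction site. A longer transcript does not give more tags in this assay, so levels need no length correction. The listed genes held between 624926 and 722533 tags, which is 14.4% to 17.2% of the library totals printed in the column headers. This share was highest in males under ambient UV-B, which also had the most genes at 0, 7001 against 5431 to 5948 elsewhere. Levels below are in CPM, the count divided by the library total and scaled to a common size. Intervals are exact 95% intervals, cover counting error only and treat each PCR-copied tag as independent.

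In males metallothionein 3a was counted 486 times under reduced and 2104 times under ambient UV-B, and in females 1173 times and 4457 times. Both ambient libraries lay above both reduced libraries, and at each UV-B level the female library lay above the male one. Scaled by the library totals, the lowest level, in the male library of reduced UV-B, was 113 CPM (exact binomial interval 104 to 124). Females under reduced UV-B followed with 267 CPM (252 to 283). Males under ambient UV-B had 500.1 CPM (479 to 522), and females under ambient UV-B had 1031 CPM (1001 to 1061). None of the 4 counting intervals overlapped its neighbour in this order, but the intervals leave out any spread between pools. The highest level was 9.08 times the lowest.

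**Figure D1:**
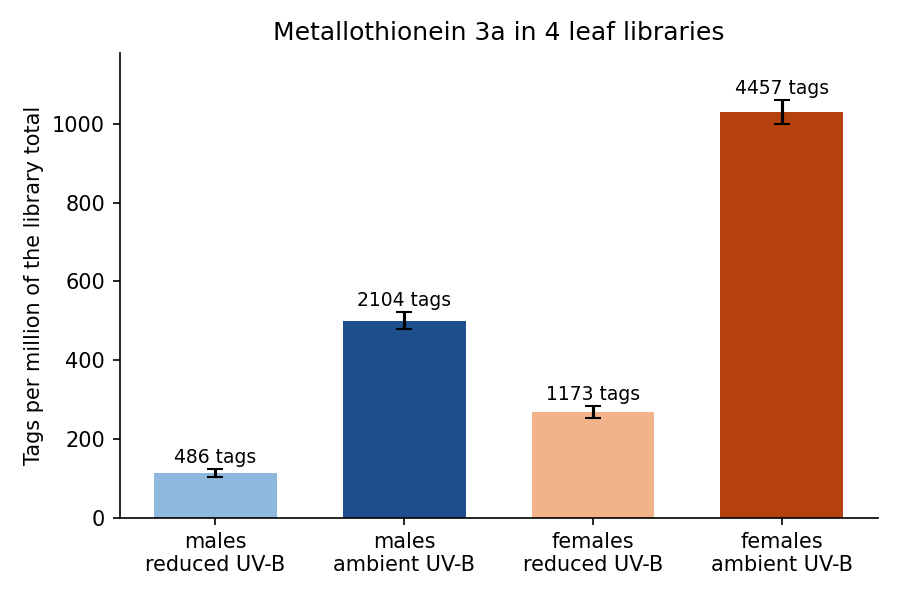
Level of metallothionein 3a in CPM by library totals (vertical axis) in each of the 4 libraries (horizontal axis), with 1 pooled library per bar, exact binomial 95% counting intervals as error bars and the raw tag count above each bar. The bars climb from 113 CPM in males under reduced UV-B to 1031 CPM in females under ambient UV-B, and no interval meets another. The intervals leave out any spread between pools.

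These levels put the gene among the most abundant listed transcripts of every library, but at quite different places. By count it ranked 160 among the 19100 genes in males under reduced UV-B and 32 under ambient UV-B. In females it ranked 61 under reduced UV-B and 13 under ambient UV-B. Among the 2940 genes with a protein name, the places were 47 and 8 in males and 22 and 5 in females. Of all listed tags of a library, metallothionein 3a made up 0.0763% (0.0697% to 0.0834%) in the male library of reduced UV-B and 0.713% (0.692% to 0.734%) in the female library of ambient UV-B. The other female library gave it 0.178% (0.168% to 0.188%), and the other male library 0.291% (0.279% to 0.304%). These shares, which do not use the library totals, keep the order of the CPM levels.

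**Figure D2:**
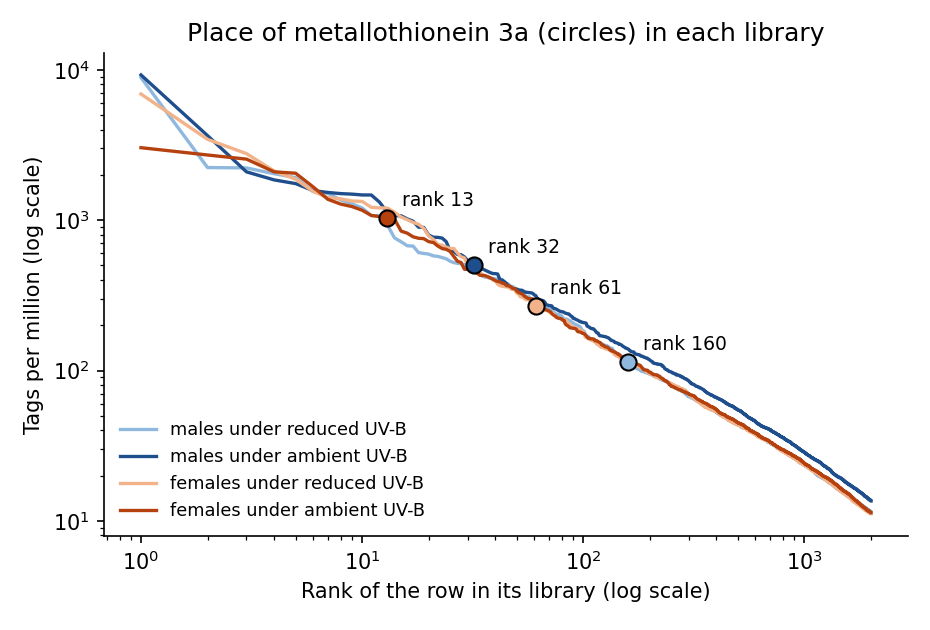
Rank-abundance curves of the 4 libraries, with the rank of a gene on a logarithmic horizontal axis, its level in CPM on a logarithmic vertical axis and metallothionein 3a as a circle on each curve. The curves lie close together between ranks 13 and 160, while the circle moves along them from rank 160 in males under reduced UV-B to rank 13 in females under ambient UV-B.

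The UV-B comparison asks how leaf transcripts differed after 100 days of ambient against reduced solar UV-B within a sex. In males the metallothionein 3a level under ambient UV-B was 4.41 times that under reduced UV-B (exact conditional interval 3.99 to 4.87), a log2 ratio of 2.14 and a gain of 387 CPM. In females the ratio was 3.86 (3.62 to 4.12), a log2 ratio of 1.95 and a gain of 764 CPM. Counted in CPM, this gain was the second highest of all 19100 genes in females and ranked 11 in males. Of the UV-B ratios in the sexes, the male one depended more on the scaling. With TMM factors, which scale on the bulk of the genes, the median log2 UV-B ratio of all genes shifted by -0.21 in males and that of metallothionein 3a became 1.93, while the female log2 ratio became 1.94.

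A ratio of that size has to be read against how often the pairs of pools differed. Of the 10741 genes with at least 10 counts over the 4 libraries, 15.2% were at least 2-fold higher under ambient UV-B in males and 14.5% in females. In males 1635 genes were at least 2-fold higher and 1675 at least 2-fold lower, a split that became 1161 and 2062 with TMM factors. Much of this comes from genes with few tags. Among the 393 genes with at least 1000 counts over the 4 libraries, to which metallothionein 3a belongs with 8220, the shares were 7.38% in males and 6.11% in females, and 4.83% and 5.85% were at least 2-fold lower. The central 95% of the log2 UV-B ratios of these abundant genes ran from -1.27 to 1.19 in males and from -1.45 to 1.57 in females. Metallothionein 3a lay above both ranges, with the second highest ratio of the 393 in males and the seventh highest in females. Among all 10741 genes, where many high ratios rest on few tags, it ranked 491 in males and 714 in females.

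Of the abundant genes, 7 (1.78%) were at least 2-fold higher under ambient UV-B in both sexes, against 2.51% of the 10741 genes. Ranked by the smaller of its 2 log2 UV-B ratios, metallothionein 3a came first among the 393 and ranked 50 among the 10741. The other 6 carry no protein name. They include Potri.011G142300.1, with 279 and 818 counts in males and 47 and 385 in females, and Potri.007G113100.1, with 384 and 1013 in males and 265 and 780 in females. Both had fewer tags in females than in males at each UV-B level, unlike metallothionein 3a. Not all of the 6 did so, since Potri.017G051100.1 had more tags in females than in males at each UV-B level.

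The comparison of the sexes asks how female and male leaves differed at a given UV-B level. Under reduced UV-B the female level was 2.35 times the male level (exact conditional interval 2.12 to 2.62), and under ambient UV-B it was 2.06 times (1.96 to 2.17). The log2 ratios were 1.23 and 1.04. A 2-fold difference between the sexes was common. Among genes with at least 10 counts, 20% were at least 2-fold higher in females under reduced UV-B and 19.6% under ambient UV-B. Among the 393 abundant genes the shares were 17% and 7.63%, and metallothionein 3a ranked 38 and 27 by its ratio. Both ratios lay inside the central 95% of the abundant genes, whose upper ends were 1.68 and 1.62 on the log2 scale. With TMM factors the log2 ratio of females over males was 1.22 under reduced and 1.23 under ambient UV-B.

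Metallothionein 3a was at least 2-fold higher in each of the 4 matched comparisons, 2 by UV-B and 2 by sex. This was so for 2 of the 393 abundant genes (0.509%) and for 32 of the 10741 (0.298%). Most of the 32 had 0 counts in males under reduced UV-B, so that their ratios to that library rest on the 0.5 added. The other abundant gene, Potri.017G051100.1, which has no protein name, had 32 and 80 counts in males and 128 and 779 in females. It reached the minimum of 1000 counts only with the last of these. The UV-B ratio of metallothionein 3a in females was 0.876 times that in males (exact conditional interval 0.777 to 0.987), a log2 difference of -0.19. That direction depends on the scaling, since the log2 difference was 0.01 with TMM factors and 0.07 when the listed tags were taken as the total. Across the abundant genes the central 95% of the same log2 difference ran from -1.54 to 1.46, with a median of -0.30.

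**Figure D3:**
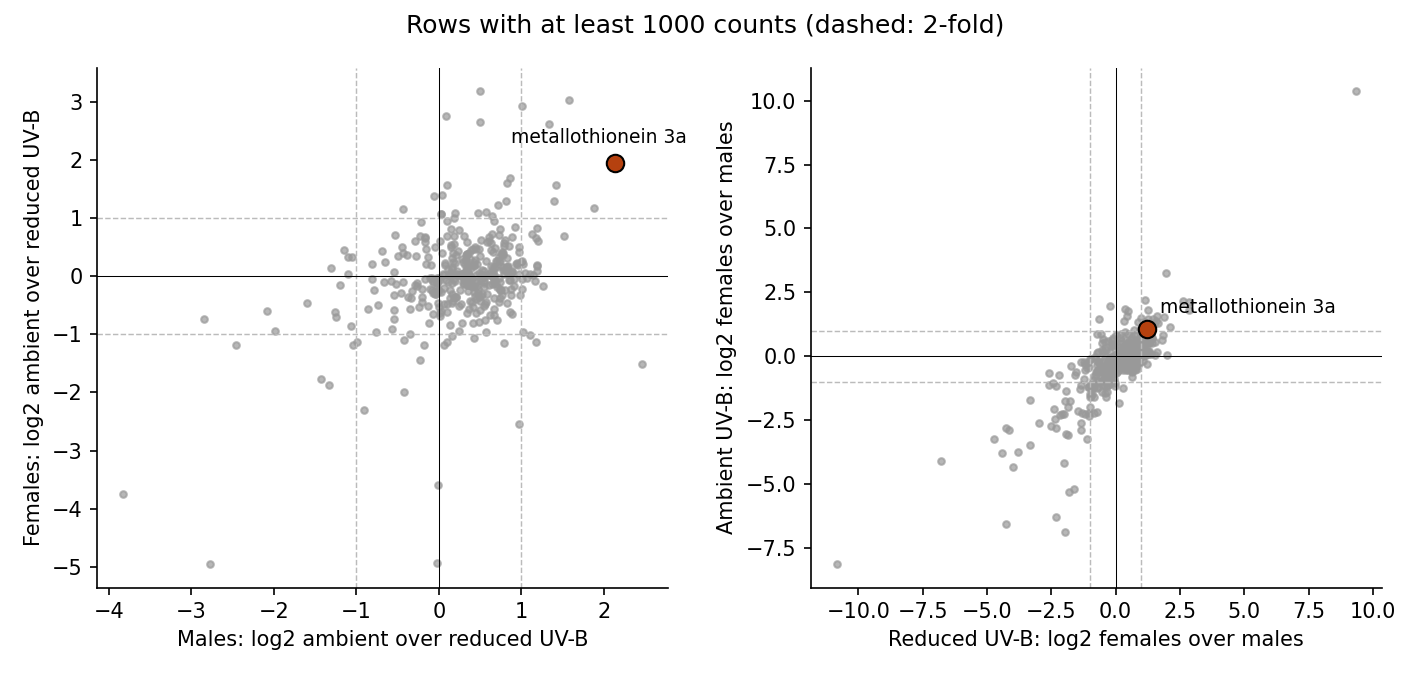
Log2 ratios of the 393 genes with at least 1000 counts over the 4 libraries, with 0.5 added to each count, as 1 grey point per gene and metallothionein 3a as the large point, and dashed lines at 2-fold. Left, ambient over reduced UV-B in males (horizontal axis) and females (vertical axis), where metallothionein 3a lies at the upper right with 2.14 and 1.95; right, females over males under reduced (horizontal axis) and ambient UV-B (vertical axis), where it lies at the edge of the main cloud with 1.23 and 1.04.

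Genes that stood beside metallothionein 3a in a library had smaller UV-B ratios than it in each sex, apart from a Kunitz-type inhibitor in males. Metallothionein 3a was chosen by its own counts, so this contrast is a description. The 4 genes next to it in rank in males under reduced UV-B had 484 to 488 counts there and 500 to 709 under ambient UV-B, where metallothionein 3a had 2104. The 4 next to it in females under reduced UV-B had 1166 to 1244 counts and then 249 to 1192 under ambient UV-B, where metallothionein 3a had 4457. Over the 16 such neighbours of the 4 libraries, the median log2 UV-B ratio was 0.39 in males and -0.11 in females. Of all 393 genes with at least 1000 counts, 7.38% were at least 2-fold higher in males and 6.11% in females. Of the 16 neighbours, 2 were so in males and 0 in females, too few to set apart from those shares. The 2 were Potri.002G079900.1, with no protein name and 572 and 1132 counts in males, and a Kunitz-type inhibitor of proteases (Potri.019G124400.2). The inhibitor had 372 and 2014 counts in males and 76 and 26 in females. In females under ambient UV-B the neighbours included the antenna genes Lhcb1 (Potri.005G239300.1, 4565 counts) and Lhcb2 (Potri.002G221400.1, 4401 counts), which encode chlorophyll-binding proteins of photosystem II. Under reduced UV-B these had 5852 and 4965 counts in females, several times the 1173 of metallothionein 3a.

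The genes most like metallothionein 3a over the 4 libraries were sought among 3477 others with at least 100 counts. Likeness was the root mean square difference of log2 CPM after the mean of each gene was taken away, so 0 means the same profile. The median gene differed by 1.18, and 6 genes by at most 0.5. The nearest, Potri.008G210400.1 at 0.27, has no protein name and had 39 and 214 counts in males and 98 and 270 in females. The second, at 0.40, was the glutaredoxin Potri.010G021800.1, of a family of small thiol oxidoreductases that use glutathione. Its counts were 31 and 114 in males and 36 and 184 in females, so that its UV-B difference was alike in direction while its levels in the sexes under reduced UV-B were close together. The other 6 of the nearest 8, Potri.016G037600.1, Potri.003G138700.1, Potri.009G168400.1, Potri.001G182000.1, Potri.008G135400.1 and Potri.001G325000.1, have no protein name and differed by 0.47 to 0.51. Of the nearest 8, 3 were at least 2-fold higher under ambient UV-B in both sexes, a count that their choice by profile partly fixes. The share was 2.51% of the 10741 genes with at least 10 counts, a wider set than the 3477 searched.

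Among genes with a protein name, those next in likeness after the glutaredoxin were further off, at 0.62 to 0.72. The gene of an ABC transporter named for multidrug resistance (Potri.003G034700.1) had 111 and 161 counts in males and 121 and 370 in females. The aquaporin Potri.016G098200.1, of the TIP group of vacuolar water channels, had 164 and 462 in males and 289 and 459 in females. The remaining 5 were a Patellin-3 gene (Potri.019G079500.1), a cytochrome P450 (Potri.001G083900.1), a ubiquitin gene (Potri.011G026600.1), an RNA-binding protein gene (Potri.005G116400.1) and a metal tolerance protein gene (Potri.005G110300.1). The last belongs to a family of transporters that move metal cations out of the cytosol, and it had 18 and 42 counts in males and 25 and 41 in females. With 4 libraries, a likeness of this kind describes these pools and rests on few counts for the rarer genes.

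**Figure D4:**
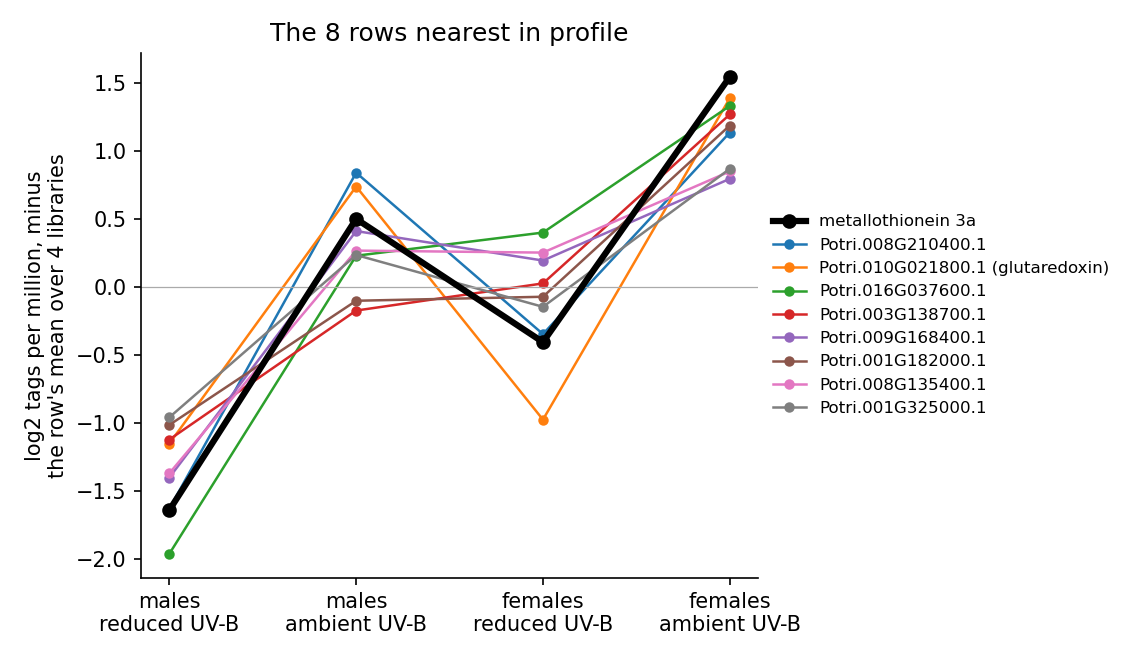
Log2 CPM minus the mean of each gene over the 4 libraries (vertical axis) in each library (horizontal axis), for metallothionein 3a in black and the 8 nearest genes in colours. All 9 lines are lowest in males under reduced UV-B, and the glutaredoxin Potri.010G021800.1 lies lower than metallothionein 3a in females under reduced UV-B.

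Other genes that handle metals were set beside metallothionein 3a. The copper chaperone Potri.010G236500.1, which carries copper ions to their target proteins, was near-level, with 1240 and 1325 counts in males and 1357 and 1356 in females. Its log2 UV-B ratios were 0.12 (exact conditional interval 0.01 to 0.23) and 0.02 (-0.09 to 0.13). Per copper chaperone tag there were 0.392 metallothionein 3a tags in males under reduced UV-B and 1.59 under ambient UV-B, and in females 0.864 and 3.29. This measure needs no library total but takes 1 other gene as level, which was not tested. It put the UV-B ratio at 4.05 in males and 3.80 in females. As the chaperone was near-level by the library totals, values close to the CPM ratios follow.

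Membrane transporters of metals, namely ZIP, NRAMP, copper, magnesium, ferroportin and metal tolerance proteins, had 43 genes listed, of which 28 had at least 10 counts. In each sex 3 of the 28 were at least 2-fold higher under ambient UV-B and 3 at least 2-fold lower, which is 10.7% in each direction and below the 15.2% and 14.5% of all genes. Their median log2 ratio was 0.30 in males and 0.02 in females, where all 10741 genes had 0.11 and 0.02. The most abundant was an NRAMP transporter (Potri.007G050700.1), of a family that carries iron and manganese, with 554 and 508 counts in males and 245 and 277 in females. Among members with at least 50 counts in the higher library of the comparison, the highest UV-B ratio was that of a ZIP transporter (Potri.001G366100.1), of a zinc and iron uptake family, in males, with 261 and 410 counts, against 13 and 18 in females. By the same minimum, in females it was that of a copper transporter (Potri.009G038800.1), with 155 and 249 counts, against 220 and 301 in males. The lowest in females was another ZIP transporter (Potri.001G279300.1), with 119 and 82 counts. The rarer metal tolerance protein gene named above (Potri.005G110300.1), which does not reach that minimum, had higher log2 ratios than these, 1.23 in males and 0.72 in females. None of the 4 other transporters named here differed 2-fold with UV-B in either sex.

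Heavy metal ATPases, which pump metal ions across membranes, were rare, with 36 counts at most in any library for the 5 of 6 genes that had 10 counts in all. Of the 5, 2 were at least 2-fold higher in males and 3 in females, where all genes had 15.2% and 14.5%, and none was 2-fold lower, at counts too low to place a ratio closely. Their median log2 ratio in females was 1.10, or 1.19 with 0 counts set at 3. In males it was 0.49, or -0.42 with 0 counts set at 3, which is more than the 0 or 1 tag that a listed 0 can stand for. The change comes with 1 member, at 0 in males under reduced UV-B, so the male median rests on very few tags. The most abundant, Potri.003G075700.1, had 26 and 36 counts in males and 15 and 23 in females. The oligopeptide transporters of the OPT family, some of which carry metal chelates, had 9 of 15 genes with 10 counts. Of these, 0 were at least 2-fold higher in either sex, and 1 was lower in males and 0 in females. The most abundant, Potri.001G327300.1, had 355 and 392 counts in males and 353 and 411 in females. By gene ontology, 157 genes with at least 10 counts carried the term response to metal ion. In males 22 of them (14.0%) were at least 2-fold higher and 13 (8.28%) lower, and in females 26 (16.6%) and 16 (10.2%). All genes had 15.2% higher and 15.6% lower in males, and 14.5% and 16.3% in females. The median log2 ratios of the 157, 0.13 and 0.02, were those of all genes to within 0.03. The 31 genes of metal ion transport had medians of 0.30 and 0.25. Of these, 2 (6.45%) were at least 2-fold higher and 0 lower in males, and 6 (19.4%) higher and 4 (12.9%) lower in females. The 758 genes of transition metal ion binding had 16.1% at least 2-fold higher and 14.6% lower in males. In females they had 13.6% and 17.4%, and both pairs were close to the shares of all genes.

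**Figure D5:**
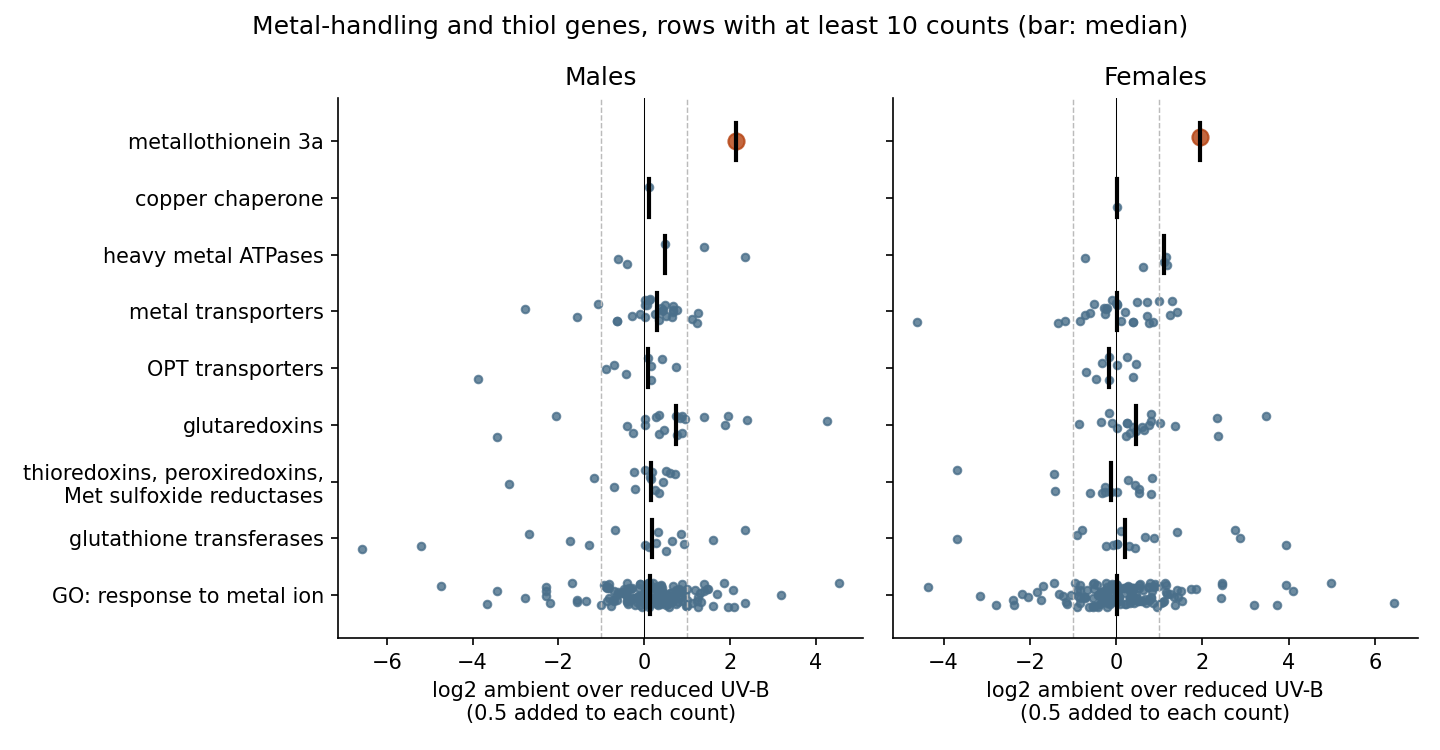
Log2 ratio of ambient over reduced UV-B, with 0.5 added to each count (horizontal axis), in males (left) and females (right) for the members of 9 groups (vertical axis) with at least 10 counts, as 1 point per gene with the median as a black bar and dashed lines at 2-fold. Metallothionein 3a, at 2.14 and 1.95, lies above the medians of all 8 other groups in both sexes, of which the highest are 0.74 in males, for glutaredoxins, and 1.10 in females, for the 5 heavy metal ATPases. Single members of some groups lie above it, up to 4.27 in males and 3.48 in females for glutaredoxins. For response to metal ion the highest are 4.55 in males and 6.43 in females.

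Glutaredoxins and thioredoxins, which like metallothioneins act through cysteines, were also set beside it, with glutathione transferases and antioxidant genes. Of 22 glutaredoxins 21 had at least 10 counts, and 5 of these (23.8%) were at least 2-fold higher under ambient UV-B in each sex, with 2 at least 2-fold lower in males and 0 in females. All genes had 15.2% and 14.5% higher. The median log2 ratio of the glutaredoxins was 0.74 in males and 0.46 in females, or 0.75 and 0.39 with 0 counts set at 3 per library, where all genes had 0.11 and 0.02. The most abundant glutaredoxin, Potri.002G208400.1, had 185 and 233 counts in males and 317 and 173 in females, and so a UV-B difference of the opposite direction in females. Thioredoxins, peroxiredoxins and methionine sulfoxide reductases, which reduce disulfides, peroxides and oxidised methionine, had 0 of 15 genes at least 2-fold higher in either sex, with 2 lower in males and 3 in females. Their most abundant member, thioredoxin m (Potri.005G186800.1), had 1656 and 2079 counts in males and 2460 and 2040 in females. Glutathione transferases, which couple glutathione to reactive compounds, had 2 of 16 at least 2-fold higher and 5 lower in males, and 4 higher and 1 lower in females. The most abundant, GSTF1 (Potri.002G015100.1), had 551 and 984 counts in males and 1516 and 1428 in females. Genes with the term antioxidant activity were more often at least 2-fold lower than higher, 12 against 3 of 46 in males and 13 against 4 in females. As shares, 26.1% were lower and 6.52% higher in males, and 28.3% and 8.70% in females, where all genes had 15.6% and 15.2% in males and 16.3% and 14.5% in females. Named enzymes of radical scavenging were few, with 0 of 2 past 2-fold in either sex. Of these, glutathione reductase (Potri.015G037800.1), which regenerates glutathione, had 114 and 215 counts in males and 275 and 199 in females. Cysteine and glutathione synthesis had 2 genes, of at most 28 counts in a library, and 1 was at least 2-fold lower in males. Genes with the term response to reactive oxygen species had 3 of 21 higher and 4 lower in each sex.

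Few named genes of UV-B signalling and its targets were listed. Of 9 such genes, 6 had at least 10 counts. In males 1 of the 6 was at least 2-fold higher and 1 lower, and in females 0 and 1. Chalcone synthase Potri.001G051600.1, at the entry to the synthesis of UV-screening flavonoids, had 50 and 104 counts in males and 20 and 39 in females, log2 ratios of 1.07 and 0.97 with 0.5 added to each count. The more abundant chalcone synthase Potri.003G176800.1 had 93 and 133 counts in males and 28 and 23 in females. Of the 18 genes with the term response to UV, 0 were at least 2-fold higher in males and 2 (11.1%) lower. In females 2 (11.1%) were higher and 3 (16.7%) lower. The shares of all genes were 15.2% and 15.6% in males and 14.5% and 16.3% in females. Senescence genes and cysteine proteases by name were 2, of at most 40 counts in a library, and 1 of them was at least 2-fold lower in males. Of the 5 stress proteins with 10 counts, 1 was at least 2-fold higher in each sex and 2 were lower in females. The most abundant of these, Potri.005G002100.1, named as a stress-induced hydrophobic peptide, had 6 and 10 counts in males and 11 and 93 in females. Of the 26 genes with the term organ senescence, 6 were at least 2-fold higher and 3 lower in males (23.1% and 11.5%), and 1 higher and 4 lower in females (3.85% and 15.4%). All genes had 15.2% higher and 15.6% lower in males, and 14.5% and 16.3% in females. The median log2 ratio of the senescence genes was 0.32 in males and -0.16 in females.

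The labelled tissue was checked by its markers. Genes of leaf mesophyll, mainly light-harvesting proteins, summed to 6367 to 8251 CPM in every library, with 5837 to 9324 counts for Lhca3 (Potri.014G172400.1), an antenna protein of photosystem I. Their median log2 UV-B ratio was -0.27 in males and -0.55 in females. In each sex 2 of 28 (7.14%) were at least 2-fold higher, where all genes had 15.2% in males and 14.5% in females. At least 2-fold lower were 8 (28.6%) in males and 4 (14.3%) in females, where all genes had 15.6% and 16.3%. Of the 28 mesophyll markers with 10 counts, 1 was at 0 in males under reduced UV-B and 2 in each other library. Markers of xylem and of epidermis summed to less under ambient UV-B in both sexes. The 15 xylem and fibre markers summed to 110 CPM and 75.8 CPM in males and to 75.1 CPM and 20.3 CPM in females, and 5 and 11 of them were at least 2-fold lower, where all genes had 15.6% and 16.3%. None was at 0 in males under reduced UV-B, and the other libraries had 1 to 3 at 0. The 7 epidermis markers, all ketoacyl-CoA synthases of wax synthesis, summed to 23.1 CPM and 11.2 CPM in males and to 18.7 CPM and 7.40 CPM in females. Of these 7, at most 2 were at 0 in a library, and their highest count was 25. The 43 markers of dividing cells, mainly histones and tubulins, summed to 409 CPM and 519 CPM in males and to 502 CPM and 481 CPM in females, with at most 4 at 0. Both phloem markers listed had fewer than 10 counts, and 0 genes carried a guard cell marker name. In pooled leaf RNA, fewer cells of a type and less of these marker transcripts per cell cannot be told apart. The part of these shifts in the metallothionein 3a level was not tested.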

How the data were processed

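Raw tag counts were deposited by the authors in 1 table, whose column headers, per the file headers, also give the library totals. The deposited values headed TPM are CPM, since dividing the counts by the header total gave 100% of them within 0.005. Tags of 17 bp were extracted and counted with the Illumina pipeline, per the labels' protocols, and libraries ran on separate lanes. The same protocols speak of biological replicates of the extraction, but each group has 1 library. How tags were assigned to genes, and on which build, is not given in the sources used here. Coordinates and sequences are not printed. No count of 1 occurs, so a listed 0 can stand for 0 or 1 tag, and 2 is the lowest count above it.

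Groups were taken from the labels. With 1 library per group no test was made. Level intervals are Clopper-Pearson intervals, ratio intervals are exact conditional binomial and the interval of the ratio of ratios is noncentral hypergeometric. Metallothionein 3a ratios were computed without a pseudocount, and ratios across genes with 0.5 added to each count and at least 10 counts over the 4 libraries. The interval code was tested on simulated counts. TMM and upper-quartile factors came from edgeR 4.0.16 and size factors from DESeq2 1.42.0, used for scaling alone. Other steps used Python 3.11.15, scipy 1.17.1 and pandas 2.3.3.

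The gene, the lists and the naming rule were chosen with earlier results of these data known. The rule named the gene, any other metallothionein, the 8 nearest profiles, the 8 nearest with a protein name, the 2 neighbours in rank on each side per library, and from each list its most abundant member and its highest and lowest UV-B ratios among members with at least 50 counts in the higher library compared. Not all of these are printed. Lists are word patterns on descriptions or gene ontology terms, and they were regrouped, and the terms added, after their members were seen. Potri.011G142300.1, Potri.007G113100.1 and Potri.017G051100.1 were named after their values were seen.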

Additional observations from a re-analysis of the deposited data

Results flagged for a closer look

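Of the genes the rule names, 2 had UV-B ratios past 2-fold in opposite directions in the sexes. The tau class glutathione transferase GSTU20 (Potri.008G175000.1) had 131 and 3 counts in males under reduced and ambient UV-B, and 21 and 155 in females. With 0.5 added to each count, its log2 ratio was -5.21 in males and 2.88 in females, 8.08 higher in females. The Kunitz-type inhibitor Potri.019G124400.2, next to metallothionein 3a in rank in males under ambient UV-B, had 372 and 2014 counts in males and 76 and 26 in females. Its log2 ratio was 2.46 in males and -1.51 in females, a difference of -3.97, females minus males. Each ratio compares 1 library with 1 other, and neither difference was tested. Metallothionein 3a was higher under ambient UV-B in both sexes.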

How the results depend on the processing

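No paired analysis was possible because each group has 1 library, and for the same reason no library could be left out. The metallothionein 3a ratios for UV-B in females and for sex under reduced UV-B stayed within their counting intervals under every scaling tried. For UV-B in males the log2 ratio, 2.14 with library totals, was 1.93 with TMM factors, 1.94 with DESeq2 size factors, 1.92 with upper-quartile factors and 1.93 with the listed tags as the total. Females over males under ambient UV-B, 1.04 with library totals, came to 1.23, 1.23, 1.32 and 1.29 in the same order. The log2 difference of the UV-B ratios, females minus males, was -0.19 with library totals and 0.012, 0.024, 0.053 and 0.074 in that order, so its sign rests on the scaling. Each of these alternatives scales males under ambient UV-B down. Ranks by count did not change when transcripts of a locus were summed.

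Counts of genes past 2-fold depend on the minimum count by construction. With no minimum, 3082 were higher and 4398 lower for UV-B in males, 3821 and 4223 for UV-B in females, 4645 and 4948 for females over males under reduced UV-B, and 4795 and 4363 under ambient UV-B. With at least 10 counts the same pairs were 1635 and 1675, 1554 and 1752, 2146 and 2347, and 2108 and 2643. With at least 1000 counts they were 29 and 19, 24 and 23, 67 and 62, and 30 and 73. The 8 nearest profiles were the same 8 genes with TMM factors, and 0 of them were left with a minimum of 1000 counts, which none of the 8 reaches. List medians moved past an order-statistic interval of the main median in 8 repeats, all under another scaling or minimum, and stayed inside it in 136, changes of pseudocount included. Depth limits the genes with few tags, where 1 tag more or less changes a ratio, and hardly limits metallothionein 3a, whose lowest count was 486.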

Other observations

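The identifiers numbered closest to metallothionein 3a, those that begin with Potri.011G118 or Potri.011G119, belong to 11 other listed genes. None had more than 21 counts in any library.

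Among genes with at least 1000 counts, the profiles nearest to metallothionein 3a were those of Potri.002G251200.1, at 0.53 with 160 and 579 counts in males and 250 and 558 in females, and Potri.001G148900.2, at 0.62 with 158 and 282 in males and 149 and 475 in females. Neither has a protein name, and both were lower in abundance than metallothionein 3a in every library.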
